A study of Arabidopsis thaliana with 9 samples.

Results

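The 10 genes described here are 7 D-type cyclin genes and 3 E2F genes of Arabidopsis thaliana: CYCD1;1, CYCD2;1, CYCD3;1 to CYCD3;3, CYCD4;1, CYCD5;1, E2FA, E2FB and E2FC. They were picked by gene identifier, with no threshold on measured values, at a time when earlier results of these data were known. Each of the 10 identifiers was found in the deposited table of 33871 loci, and each of the 10 loci passed the filter that left 19569 loci for testing. RNA was sequenced from inflorescences of plants 5 weeks old, grown in soil in long days at 22 °C. Every plant, controls included, was 35S:AP1-GR ap1,cal: AP1-GR is the floral regulator APETALA1 fused to the hormone-binding part of the glucocorticoid receptor, driven broadly by the viral 35S promoter, and ap1 cal mutants form masses of proliferating meristems in place of flowers. The 3 groups were untreated inflorescences, inflorescences given cycloheximide, an inhibitor of translation elongation, for 2 h, and inflorescences given dexamethasone, which releases AP1-GR to the nucleus, together with cycloheximide for 2 h. Each group had 3 libraries that the labels call biological replicates. No group had dexamethasone without cycloheximide, and none lacked AP1-GR, so an effect of dexamethasone apart from AP1-GR cannot be told apart from AP1-GR activation. The untreated group is labelled non-treatment, and no group is labelled as mock-treated. In comparisons with untreated, the compounds therefore cannot be told apart from the handling and time of the treatment.

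D-type cyclins are the cyclins through which plant cells commit to division. They bind the kinase CDKA, whose activity phosphorylates the retinoblastoma protein RBR1, and phosphorylated RBR1 releases E2F transcription factors, which with their DP partners switch on genes of DNA replication. E2FA and E2FB are known as activators, and E2FC is known as a repressor of division. The CYCD3 genes are known from work in Arabidopsis to sustain proliferation in young organs and to respond to the hormone cytokinin, which promotes division in shoot meristems. The KRP proteins bind cyclin-kinase complexes and inhibit them, and so act against the D-type cyclins. Cyclin activity also depends on protein synthesis and turnover, which transcript levels do not show.

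The bases before the gene start are shown for 5 genes, as RefSeq annotates the start on TAIR10.1: the 3 members called lower with dexamethasone and, for comparison, RBR1 and the replication gene MCM2. Each run holds 250 bases 5′ to 3′ on the gene's own strand and ends at the base before the start. Capitals mark a match to one of the E2F octamers TTTCCCGC, TTTGGCGC, TTTCGCGC or TTTGCCGC, searched on both strands. In the order printed, the windows are chr1:26439306-26439555, chr4:16357171-16357420 and chr2:15119266-15119515 on the plus strand, chr3:3919360-3919609 on the minus strand, and chr1:16969964-16970213 on the plus strand.
CYCD1;1: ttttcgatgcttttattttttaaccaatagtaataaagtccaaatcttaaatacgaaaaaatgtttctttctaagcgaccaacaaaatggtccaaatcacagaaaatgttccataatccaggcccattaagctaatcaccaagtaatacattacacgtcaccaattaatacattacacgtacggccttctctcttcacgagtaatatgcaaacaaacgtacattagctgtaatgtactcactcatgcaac
CYCD3;1: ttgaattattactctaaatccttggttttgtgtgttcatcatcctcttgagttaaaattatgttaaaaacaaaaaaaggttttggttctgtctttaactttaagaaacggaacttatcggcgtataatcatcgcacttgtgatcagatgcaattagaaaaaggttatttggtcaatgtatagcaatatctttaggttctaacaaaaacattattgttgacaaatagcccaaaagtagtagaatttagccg
E2FA: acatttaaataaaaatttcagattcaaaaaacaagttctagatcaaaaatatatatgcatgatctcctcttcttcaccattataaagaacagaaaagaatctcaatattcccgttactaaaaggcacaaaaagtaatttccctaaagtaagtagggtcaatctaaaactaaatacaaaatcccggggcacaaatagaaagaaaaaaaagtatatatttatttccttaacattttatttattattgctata
RBR1: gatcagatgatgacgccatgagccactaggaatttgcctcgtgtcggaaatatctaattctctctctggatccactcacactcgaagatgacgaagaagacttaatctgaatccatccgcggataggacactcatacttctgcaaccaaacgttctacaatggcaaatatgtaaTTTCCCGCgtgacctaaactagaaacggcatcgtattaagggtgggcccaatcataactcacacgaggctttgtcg
MCM2: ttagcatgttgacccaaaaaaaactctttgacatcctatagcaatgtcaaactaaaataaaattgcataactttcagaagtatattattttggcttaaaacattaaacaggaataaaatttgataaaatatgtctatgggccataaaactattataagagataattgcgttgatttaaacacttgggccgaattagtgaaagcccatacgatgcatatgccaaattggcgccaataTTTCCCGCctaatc
None of the 3 members shown held a match in its window. Among 27443 promoters of protein-coding genes of the same length 387, or 1.41%, held a match. RBR1 had TTTCCCGC 76 to 69 bases before its start and MCM2 14 to 7 bases before. Both come from gene lists described below, in which most windows held no match. A match was in 1 of 24 pathway windows, that of RBR1, and in 9 of 23 S-phase windows. The windows of the replication genes PCNA1, PCNA2 and TSO2 held none. The CArG box, the motif that MADS-domain proteins such as APETALA1 bind, was in 0 of the 5 windows shown and in 2.52% of all 27443. These are matches of letters in short windows, and distal or downstream sequence was not searched. The deposited locus starts 168 and 218 bases from the RefSeq start for the first and second gene shown, and 189 bases for RBR1.

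Values are the deposited FPKM, fragments relative to locus length and library size, so that levels of different genes can be set side by side. Differences are log2 fold changes of FPKM + 1 with their SE, which understate the change of low genes. They were tested with limma, two-sided, on all 9 libraries, and a call is an adjusted p (Benjamini-Hochberg over the 19569 loci) under 0.05. Total read counts per library are not known from the sources at hand. From the steps between low values, relative depth was 1 in the deepest library, untreated replicate 2, and 0.364 and 0.389 in dexamethasone + cycloheximide replicates 2 and 3, the shallowest. The labelled tissue was checked against marker genes. The 5 meristem markers STM, WUS, CLV3, LFY and TFL1 were detected in every library and summed to between 320.1 and 350.4 FPKM untreated, between 248 and 334 with cycloheximide and between 151 and 195 with dexamethasone + cycloheximide. STM and TFL1 make up most of that sum, and WUS and LFY were higher in both treated groups than in untreated tissue. The tapetum markers A9 and AMS summed to at most 7.24 FPKM in any library and to at most 0.394 with dexamethasone + cycloheximide. Other markers of the same list were not low. In untreated tissue the leaf gene RBCS1A had 3079 ± 158 FPKM, above every meristem marker, and the petal and stamen gene PI 41.2 ± 2.99 (SD, n = 3). How much other tissue the samples held was not tested. In bulk tissue fewer cells of a type and less RNA per cell cannot be told apart.

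Among the 7 D-type cyclin genes described here, the CYCD3 genes had most of the summed FPKM. In untreated inflorescences CYCD3;2 (AT5G67260, chromosome 5, 26836148 to 26837811) stood highest with 310.3 ± 6.06 FPKM (SD, n = 3). CYCD3;1 (AT4G34160, chromosome 4, 16357639 to 16359555) followed at 156 ± 6.59, CYCD3;3 (AT3G50070, chromosome 3, 18565134 to 18566780) at 93.0 ± 1.86 and CYCD1;1 (AT1G70210, chromosome 1, 26439724 to 26442829) at 45.7 ± 0.651 FPKM. No library of one of these genes reached the range of its neighbour in that order. Below them E2FC (AT1G47870, chromosome 1, 17634757 to 17637772) at 22.3 ± 1.26, E2FB (AT5G22220, chromosome 5, 7360530 to 7364476) at 18.4 ± 3.38 and CYCD5;1 (AT4G37630, chromosome 4, 17679182 to 17681267) at 18.1 ± 1.11 FPKM overlapped each with the next. The lowest were CYCD4;1 (AT5G65420, chromosome 5, 26141470 to 26143993) at 14.2 ± 0.896, E2FA (AT2G36010, chromosome 2, 15119542 to 15123184) at 11.7 ± 0.463 and CYCD2;1 (AT2G22490, chromosome 2, 9553803 to 9556145) at 6.82 ± 0.662 FPKM, whose ranges did not overlap. Coordinates are those of the deposited loci on TAIR10. In both treated groups the CYCD3 genes kept the top 3 places in the same order. CYCD1;1 moved from the fourth place to the sixth with cycloheximide and to the seventh with dexamethasone + cycloheximide, where it overlapped its neighbours on both sides, and CYCD5;1 took the fourth place in both. E2FA was lowest in both treated groups.

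**Figure D1:**
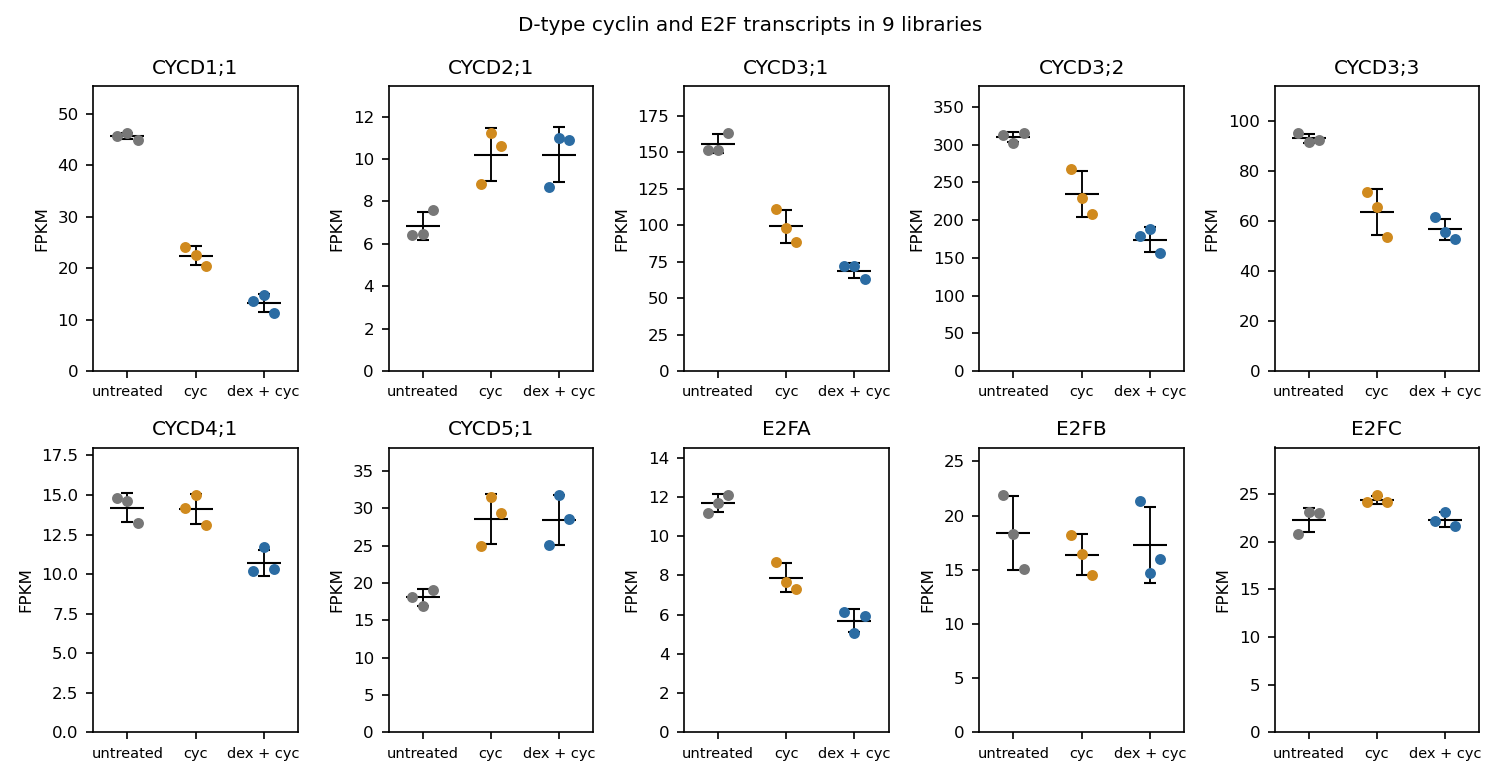
FPKM (vertical axes, each from 0) of the 10 genes in the untreated, cycloheximide (cyc) and dexamethasone + cycloheximide (dex + cyc) groups. Points are the 3 libraries of a group, and black bars the mean ± SD. CYCD1;1 steps down from 45.7 to 22.4 to 13.2 FPKM, while CYCD5;1 steps up from 18.1 to 28.6 FPKM and then stays at 28.5.

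Cycloheximide against untreated asked how these transcripts differed after 2 h with the inhibitor of translation, without a mock-treated control. Of the 10 genes 5 fell (CYCD1;1, the 3 CYCD3 genes and E2FA), 2 rose (CYCD2;1 and CYCD5;1) and 3 did not pass the test (CYCD4;1, E2FB and E2FC). Much of the transcriptome differed in this comparison: 54.7% of all tested loci were called, 28.2% lower and 26.5% higher. The members' count of 7 is to be read against that background. In 5 members every cycloheximide library lay below every untreated one, and in 3 above, against 33.6% and 30.5% of all tested loci, 64.1% together. The median log2 fold change was -0.28 over the members and -0.05 over all tested loci.

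Among the cyclins, CYCD1;1 fell most. It had 45.8, 46.2 and 45.0 FPKM in untreated replicates 1, 2 and 3 and 24.1, 22.5 and 20.5 with cycloheximide, so that every treated library was well below every untreated one. The log2 fold change was -1.0 ± 0.10 (limma, adjusted p = 8.61e-05). The 3 CYCD3 genes also fell. CYCD3;1 went from 152, 152 and 163 FPKM to 111, 98.4 and 88.3, a log2 fold change of -0.65 ± 0.10 (limma, adjusted p = 0.000958). CYCD3;3 went from 95, 91.4 and 92.4 FPKM to 71.6, 65.7 and 53.6, a log2 fold change of -0.55 ± 0.11 (limma, adjusted p = 0.00357). Neither gene's groups overlapped, and cycloheximide replicate 3 was the lowest treated library for both. CYCD3;2 had 313, 303 and 315 FPKM untreated and 268, 229 and 208 with cycloheximide, again without overlap, a log2 fold change of -0.41 ± 0.12 (limma, adjusted p = 0.0196). When each of the 9 libraries was left out in turn, 4 fits lost that call, namely those without untreated replicate 1, untreated replicate 3, cycloheximide replicate 2 or cycloheximide replicate 3, with an adjusted p of at most 0.0621 from limma.

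Cyclin genes of low level moved otherwise. CYCD5;1 had 18.2, 16.9 and 19.1 FPKM untreated and 25.0, 31.5 and 29.4 with cycloheximide, a log2 fold change of 0.63 ± 0.11 (limma, adjusted p = 0.00182). CYCD2;1 had 6.41, 6.47 and 7.58 FPKM untreated and 8.81, 11.2 and 10.6 with cycloheximide, a log2 fold change of 0.51 ± 0.12 (limma, adjusted p = 0.00706). Both rose: the highest untreated library was below the lowest treated one, and both calls held in each of the 9 fits without 1 library. CYCD4;1, known from the stomatal lineage and roots, stood at 14.8, 14.6 and 13.2 FPKM untreated and at 14.2, 15 and 13.1 with cycloheximide. These groups overlapped over nearly their whole range, and the 95% confidence interval of the log2 difference ran from -0.20 to 0.18.

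Of the E2F genes, the activator gene E2FA fell, from 11.2, 11.7 and 12.1 FPKM to 8.69, 7.66 and 7.31, with no overlap between groups. The log2 fold change was -0.51 ± 0.09 (limma, adjusted p = 0.00177). Its deposited locus also lists AT2G36020, a gene on the opposite strand, and the strand handling of the libraries is not settled, so reads of the 2 genes may not be separate. The locus of CYCD1;1 likewise lists AT1G70209, which overlaps its start on the opposite strand. E2FB had 21.9, 18.3 and 15.1 FPKM untreated and 18.2, 16.5 and 14.5 with cycloheximide, groups that overlapped widely (-0.15 ± 0.17, limma, adjusted p = 0.48). E2FC had 20.8, 23.1 and 23.0 FPKM untreated and 24.2, 24.9 and 24.2 with cycloheximide. The treated libraries of E2FC were all higher, but the difference of 0.13 ± 0.06 did not pass the test (limma, adjusted p = 0.114). Whether the effect on E2FA differs from that on E2FB or E2FC was not tested.

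Dexamethasone + cycloheximide against cycloheximide asked which transcripts respond when AP1-GR is released while translation is blocked. CYCD1;1, CYCD3;1 and E2FA fell further, and the other 7 genes did not pass the test. None of the 10 was called higher by limma. At an unadjusted p under 0.05 (limma) 0 had a positive change and 5 a negative one. The share of all tested loci at that unadjusted threshold was not computed, so these 2 counts have no background beside them. Of all tested loci 3.69% were called, 1.78% lower and 1.91% higher. The median log2 fold change was -0.26 over the members and 0.01 over all tested loci. In 6 of the 10 genes every dexamethasone library lay below every cycloheximide library (the 3 called genes, CYCD3;2, CYCD4;1 and E2FC), against 11.0% of all tested loci, and in 0 of them above, against 14.4%. Groups separate in either direction made up 25.4% of all tested loci. The cycloheximide libraries serve in this comparison and in the previous one, so high or low cycloheximide values push the 2 differences in opposite directions.

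The fall of CYCD1;1 was the one least tied to single libraries. It had 13.6, 14.7 and 11.3 FPKM with dexamethasone + cycloheximide against 24.1, 22.5 and 20.5 with cycloheximide alone, and the groups were well apart. The log2 fold change was -0.73 ± 0.10 (limma, adjusted p = 0.0149), with a 95% confidence interval from -0.95 to -0.50. When each of the 9 libraries was left out in turn, 7 fits called it, but not those without cycloheximide replicate 1 or cycloheximide replicate 2 (limma, adjusted p at most 0.0544), and not with the 6 libraries compared alone (limma, adjusted p = 0.0763). Fits blocked by replicate number called it, on all 9 libraries (limma, adjusted p = 0.0188) and on those 6 (limma, adjusted p = 0.0309).

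CYCD3;1 had 71.7, 71.8 and 63.0 FPKM with dexamethasone + cycloheximide, all below the lowest cycloheximide library at 88.3. The log2 fold change was -0.52 ± 0.10 (limma, adjusted p = 0.0386). E2FA had 6.14, 5.05 and 5.91 FPKM, below the lowest cycloheximide library at 7.31, a log2 fold change of -0.41 ± 0.09 (limma, adjusted p = 0.0493). Both calls are close to the threshold. When each library was left out in turn, only the fit without cycloheximide replicate 3 called either gene, and the highest adjusted p in the other 8 was 0.131 for CYCD3;1 and 0.139 for E2FA (limma). Same-numbered libraries of the 2 groups deviated together, and in a fit blocked by replicate number E2FA was no longer called (limma, adjusted p = 0.0514).

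CYCD4;1 was just outside the threshold. Its 10.2, 11.7 and 10.3 FPKM with dexamethasone + cycloheximide all lay below the cycloheximide libraries at 14.2, 15 and 13.1, a log2 fold change of -0.37 ± 0.08 (limma, adjusted p = 0.0503). In the fit blocked by replicate number it passed (limma, adjusted p = 0.0387). CYCD3;2 had 179, 188 and 156 FPKM against 268, 229 and 208, again without overlap, but its log2 difference of -0.43 ± 0.12 did not pass the test (limma, adjusted p = 0.0832). The 95% confidence interval, from -0.70 to -0.15, covers differences as large as those called in its paralog. CYCD3;3 had 61.4, 55.5 and 52.9 FPKM against 71.6, 65.7 and 53.6, groups that overlapped, with a log2 difference of -0.16 ± 0.11 (limma, adjusted p = 0.44).

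The cyclin genes that rose with cycloheximide had nearly the same level in both treated groups. CYCD2;1 had 8.69, 11.0 and 10.9 FPKM with dexamethasone + cycloheximide, a log2 difference of 0.00 with a 95% confidence interval from -0.28 to 0.28. CYCD5;1 had 25.1, 31.8 and 28.6 FPKM, a difference of -0.01 with an interval from -0.26 to 0.25. In both genes replicate 1 was the lowest library of both treated groups. E2FB had 21.3, 14.7 and 16 FPKM, a wide spread that overlapped the cycloheximide libraries, and its interval ran from -0.33 to 0.45. E2FC had 22.2, 23.1 and 21.6 FPKM, below all cycloheximide libraries and overlapping the untreated range, a log2 difference of -0.13 ± 0.06 (limma, adjusted p = 0.273).

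**Figure D2:**
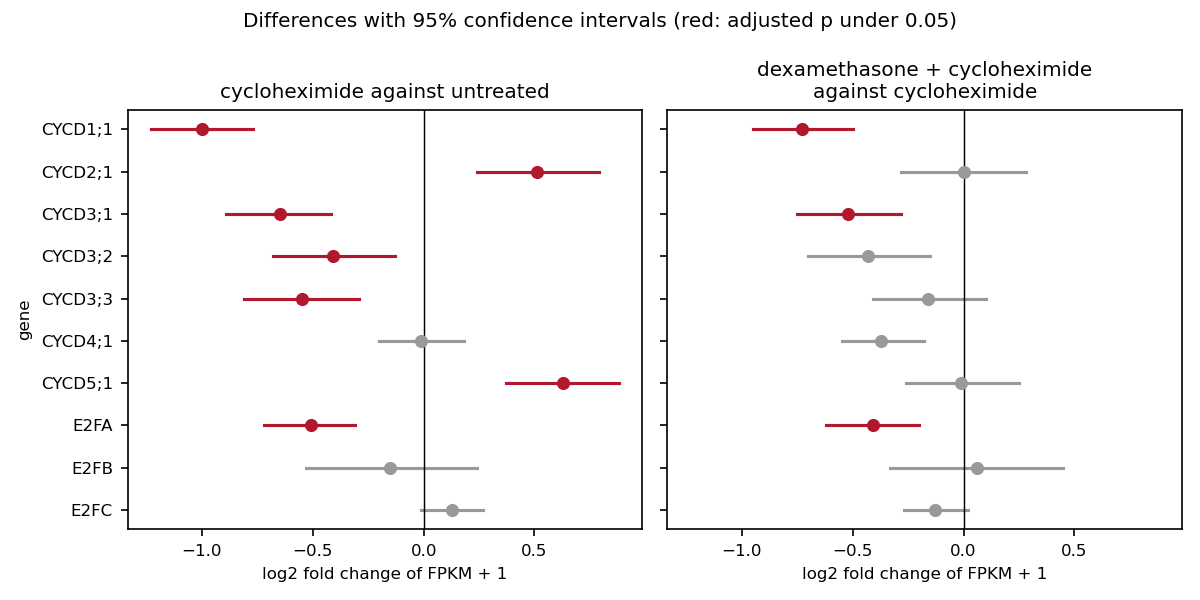
Log2 fold change of FPKM + 1 (horizontal axes) for each gene with cycloheximide against untreated (left) and with dexamethasone + cycloheximide against cycloheximide (right). Points are estimates, lines 95% confidence intervals, and red marks an adjusted p under 0.05: 7 genes on the left, 5 of them lower, and 3 on the right, all lower.

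Dexamethasone + cycloheximide against untreated gives the distance over both treatments. Of the 10 genes 6 were lower (CYCD1;1, the 3 CYCD3 genes, CYCD4;1 and E2FA), 2 were higher (those that rose with cycloheximide alone) and 2 did not pass the test (E2FB and E2FC), on a background of 63.9% of all loci called, 33.1% lower and 30.8% higher. The groups were separate for the same 8 genes, 6 lower and 2 higher, where 36.7% of all loci were separate and lower, 33.3% separate and higher, and 70.0% either. The median log2 fold change was -0.54 over the members and -0.06 over all tested loci. CYCD1;1 stood farthest from untreated, at a log2 fold change of -1.72 ± 0.10 (limma, adjusted p = 2.73e-06). The CYCD3 genes lay at -1.17 ± 0.10, -0.83 ± 0.12 and -0.71 ± 0.11 in the order of their numbers, and E2FA at -0.92 ± 0.09. For CYCD4;1 the log2 fold change was -0.38 ± 0.08 (limma, adjusted p = 0.0037). The 8 calls held whichever of the 9 libraries was left out. This comparison shares its untreated libraries with the first and its dexamethasone libraries with the second, so it is not a further test of either.

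The makeup of the summed FPKM of these 7 D-type cyclin genes shifted along with its size. CYCD4;2, CYCD6;1 and CYCD7;1 are not part of that sum. The FPKM of the 7 cyclin genes summed to 645, 631 and 655 in untreated libraries, to 523, 474 and 423 with cycloheximide and to 369.5, 385 and 333 with dexamethasone + cycloheximide, with no overlap between any of the groups. The CYCD3 genes held 86.8% ± 0.2 (SD, n = 3) of that sum untreated, 84.0% ± 1.96 with cycloheximide and 82.7% ± 1.5 with dexamethasone + cycloheximide. CYCD3;2 alone held 48.2% ± 0.291, 49.6% ± 1.51 and 48.1% ± 1.08 in the same order, close to the same share in each group. CYCD1;1 went from 7.10% ± 0.23 to 4.74% ± 0.117 and 3.63% ± 0.223, and CYCD5;1 from 2.81% ± 0.12 to 6.12% ± 1.17 and 7.88% ± 0.956. The first of this pair thus held the larger share in untreated tissue, and the second in both treated groups. Among the 3 E2F genes the sum was 52.4 ± 1.97, 48.7 ± 2.62 and 45.3 ± 3.77 FPKM, and the share of E2FA in it was 22.3% ± 1.69, 16.2% ± 0.73 and 12.6% ± 0.928. These shares are descriptions and were not tested.

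**Figure D3:**
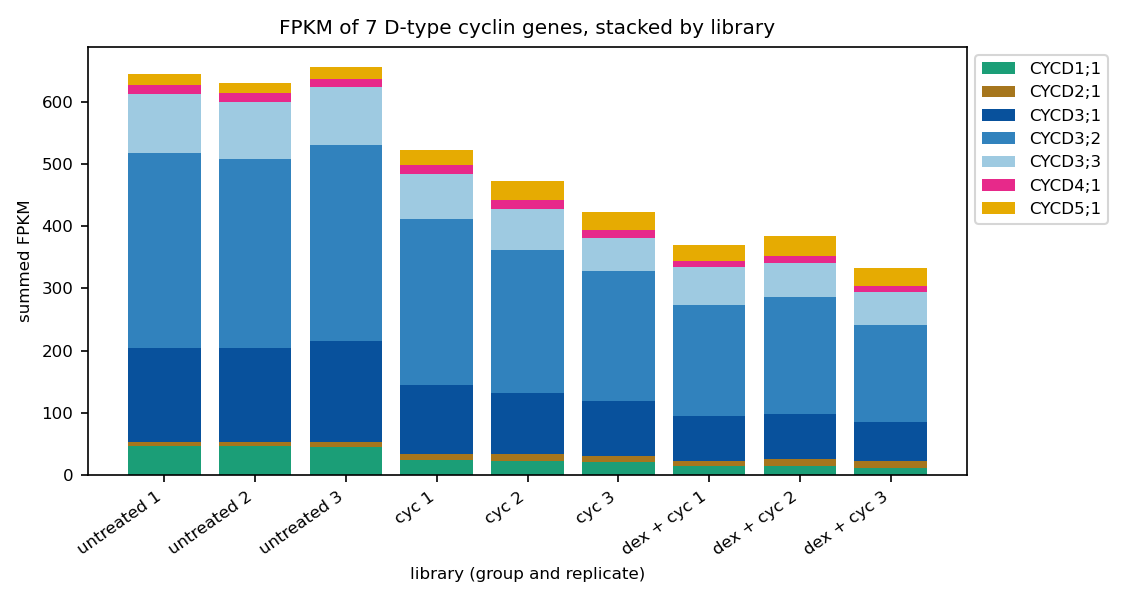
FPKM of 7 D-type cyclin genes stacked for each library (vertical axis from 0, horizontal axis group and replicate). The sums lie between 631 and 655 untreated, between 423 and 523 with cycloheximide (cyc) and between 333 and 385 with dexamethasone + cycloheximide (dex + cyc), and CYCD3;2 is the thickest band in every bar.

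The rest of the pathway was read from a list of 24 genes: further D-type cyclins, CDKA;1, RBR1, the DP partners, the atypical E2F genes DEL1 to DEL3, the KRP inhibitors, the CDK-activating kinases with their cyclin H, and the F-box genes SKP2A and SKP2B. CYCD6;1 shares its locus with other genes and was left out. That locus had a mean of 399 FPKM untreated, 199.9 with cycloheximide and 228 with dexamethasone + cycloheximide. The part of CYCD6;1 in these values is not known. CYCD7;1, listed at no more than 0.301 FPKM, did not pass the filter, which left 22. With cycloheximide 3 rose, 5 fell and 14 were not called, so that 36.4% were called beside 54.7% of all tested loci (26.5% higher and 28.2% lower). The median log2 fold change over the 22 was -0.14. RBR1, the retinoblastoma protein gene, fell from 51.5, 47.9 and 47.7 FPKM to 34.0, 28 and 28.4, with no overlap (-0.69 ± 0.10, limma, adjusted p = 0.000711). DEL1, an atypical E2F known to hold back endoreduplication, fell from 14.2 ± 0.182 to 7.20 ± 1.08 FPKM (SD, n = 3), a log2 fold change of -0.90 ± 0.14. The log2 fold change was -0.46 ± 0.09 for CYCH;1, the cyclin of the CDK-activating kinase, -0.46 ± 0.11 for KRP5 and -0.24 ± 0.08 for DEL2, an atypical E2F that went from 20.2 ± 1.03 to 16.9 ± 0.966 FPKM. The DEL2 call was lost without untreated replicate 1 or 2, or cycloheximide replicate 1 or 3 (limma, adjusted p at most 0.0819).

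Of the KRP genes, whose products bind and inhibit cyclin-kinase complexes, KRP6 rose most, from 11.6, 7.82 and 8.53 FPKM to 26.3, 27.1 and 33.4, far apart (1.55 ± 0.18, limma, adjusted p = 0.000176). KRP4 rose by a log2 fold change of 0.49 ± 0.16 (limma, adjusted p = 0.0274) and lost its call when libraries were scaled to equal medians (limma, adjusted p = 0.0591), without any 1 of the untreated replicates, or without cycloheximide replicate 1 (limma, adjusted p at most 0.0767). SKP2A, whose product is known to direct E2FC and DPB to degradation, rose by 0.48 ± 0.09. The kinase gene CDKA;1 stood at 68.5 ± 4.66, 64.2 ± 4.75 and 62.3 ± 6.87 FPKM in the 3 groups, DPA at 28.1 ± 1.93, 26.8 ± 1.64 and 27.3 ± 2.41, and DPB at 27.6 ± 0.968, 31.3 ± 2.09 and 31.2 ± 3.10. These 3 genes passed the test in none of the comparisons, except that the kinase gene was called lower over both treatments when libraries were scaled to equal medians (-0.28, limma, adjusted p = 0.0498).

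Between the treated groups limma called 0 of the 22 pathway genes, beside 3.69% of all tested loci. With so few genes and so low a share, 0 calls do not set this list apart. At an unadjusted p under 0.05 (limma) 1 was lower and 1 higher, with no share of all loci computed at that threshold. KRP3 was the lower of these, with 62.5 ± 2.24 FPKM for cycloheximide and 46.1 ± 7.37 with dexamethasone (SD, n = 3), and the fit blocked by replicate number called it (limma, adjusted p = 0.0466), but not when that block was used on the 6 libraries compared alone (limma, adjusted p = 0.0667) or when those were fitted without it (limma, adjusted p = 0.162). RBR1 had 29.3, 24.2 and 24.7 FPKM with dexamethasone + cycloheximide, overlapping the cycloheximide libraries (-0.20 ± 0.10, limma, adjusted p = 0.281). Against untreated, dexamethasone + cycloheximide gave 3 higher and 8 lower genes, or 50.0% called beside 63.9% of all tested loci (30.8% higher and 33.1% lower). The higher ones were again KRP4, KRP6 and SKP2A, of which KRP4 lost its call without any 1 untreated replicate, without dexamethasone + cycloheximide replicate 1 (limma, adjusted p at most 0.0862) and with equal medians (limma, adjusted p = 0.0883). The lower ones were RBR1, DEL1, KRP5 and CYCH;1, called with cycloheximide alone too, and DEL3, KRP3, CDKD;3 and CDKF;1, with log2 fold changes between -0.57 for KRP3 and -0.30 for the last named. The call of the last was lost without untreated replicate 1 or dexamethasone + cycloheximide replicate 3 (limma, adjusted p at most 0.0547), and that of the kinase gene before it without untreated replicate 2 or dexamethasone + cycloheximide replicate 2 or 3 (limma, adjusted p at most 0.0685).

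Replication genes, many of them known E2F targets, were given as a list of 23, of which 21 were tested: MCM7 shares its locus, and ORC1A was below the filter. All 21 fell with cycloheximide, beside 28.2% of all tested loci called lower. Their median log2 fold change was -1.09, where that of all tested loci was -0.05. This was a larger median fall than that of the pathway list or the members. The sliding clamp gene PCNA1 fell from 69.8, 62.8 and 55.7 FPKM to 12.5, 13.9 and 7.60, with a wide gap between groups (-2.40 ± 0.19, limma, adjusted p = 2.26e-05). The log2 fold change was -1.95 ± 0.14 for PCNA2, -1.32 ± 0.12 for TSO2, a subunit of ribonucleotide reductase, and -1.09 ± 0.07 for MCM2, a subunit of the replicative helicase, which went from 35.1, 35.4 and 35.0 FPKM to 16.1, 17.5 and 14.5. Between the treated groups 1 of the 21 was called, or 4.76%, near the 3.69% of all tested loci. It was the S-phase cyclin gene CYCA3;2, with 11.6, 10.8 and 9 FPKM for cycloheximide and 6.78, 8.12 and 7.04 with dexamethasone, groups that did not overlap (-0.46 ± 0.10, limma, adjusted p = 0.0473). The fit blocked by replicate number did not call it (limma, adjusted p = 0.0506), and when each library was left out in turn only the fit without cycloheximide replicate 3 called it, with an adjusted p of up to 0.153 from limma in the other 8. None of the 21 was called higher by limma. At an unadjusted p under 0.05 (limma) 0 were higher and 7 lower, counts without a share of all tested loci at that threshold to compare them with. Over both treatments MCM5 fell by 1.44 on the log2 scale and all 21 were lower, beside 33.1% of all tested loci. In their windows before the start 9 of the 23 listed genes held an E2F octamer, among them ORC1A, which was not tested. So did 1 of the 24 pathway genes and 0 of 9 member windows, beside 1.41% of all promoters of protein-coding genes. With so few windows and so low a share, 0 matches do not set the members apart.

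**Figure D4:**
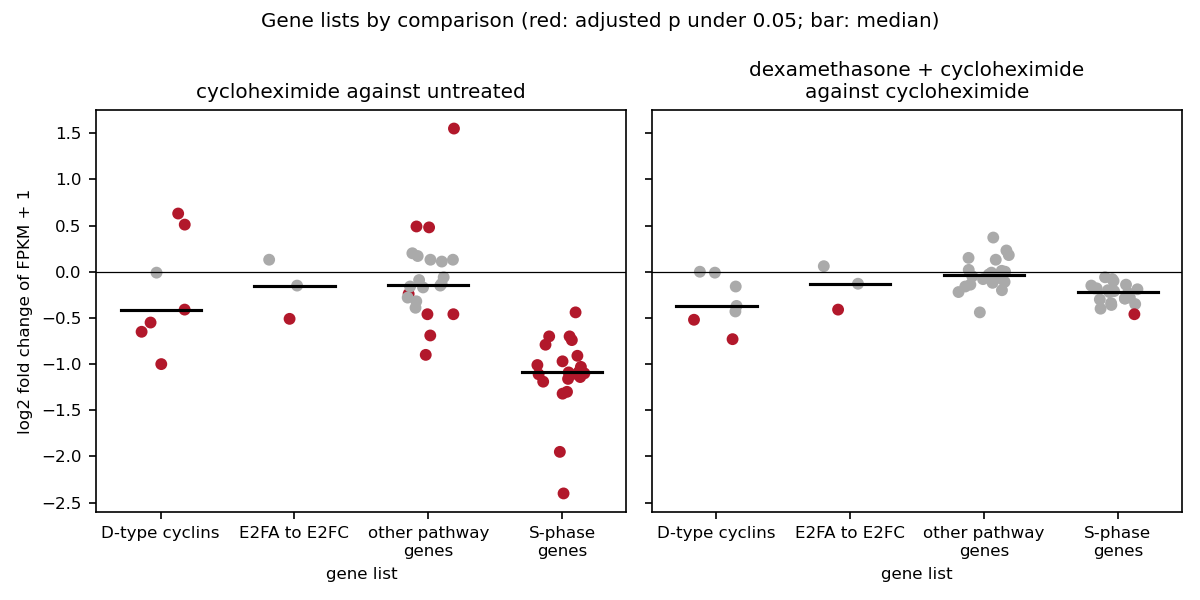
Log2 fold change of FPKM + 1 (vertical axes) of the 7 D-type cyclins, 3 E2F genes, 22 other pathway genes and 21 S-phase genes, with cycloheximide against untreated (left) and with dexamethasone + cycloheximide against cycloheximide (right). Each point is a gene, red where the adjusted p was under 0.05, and the bar is the list's median. The S-phase genes lie around -1.09 on the left and around -0.22 on the right.

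Over the 9 libraries the log2(FPKM + 1) profile of CYCD3;1, centred on its mean, was closest to that of TUB9, a beta-tubulin gene. The root mean square difference was 0.0426 log2 units. Next among single-gene loci with a symbol came PDF1, an epidermal marker, at 0.059, EXL7 at 0.0791, GLDP2, a subunit of glycine decarboxylase, at 0.0799 and NOP56, a nucleolar protein gene, at 0.0869. TUB9 had 128 ± 3.99, 81.1 ± 7.55 and 57.3 ± 4.46 FPKM (SD, n = 3) in the untreated, cycloheximide and dexamethasone + cycloheximide groups. EXL7 had only 2.26 ± 0.141, 1.07 ± 0.372 and 0.491 ± 0.0832 FPKM in the same order. At such low levels the added 1 shrinks its changes. Among the other members E2FA was nearest, at 0.14, followed by CYCD3;2 at 0.147, CYCD3;3 at 0.207 and CYCD1;1 at 0.237, while CYCD5;1 was farthest at 0.774. By this measure E2FA ranked 161 among the other 19568 tested loci. The libraries are few and share 3 group means, so likeness here is a description.

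Tissue markers moved in both directions. Of the 13 tested, 3 were called higher and 4 lower with cycloheximide, or 53.8% beside 54.7% of all tested loci. Over both treatments 4 were higher and 8 lower, or 92.3% beside 63.9%. Between the treated groups 7.69% were called, beside 3.69% of all tested loci. TFL1, which keeps the inflorescence meristem indeterminate, was the 1 marker called between the treated groups: it had 165, 144 and 117 FPKM for cycloheximide and 40.7, 43.4 and 31.8 with dexamethasone, far apart (-1.85 ± 0.15, limma, adjusted p = 0.00279), after 149.6 ± 11.7 FPKM (SD, n = 3) untreated. STM, which keeps meristem cells undifferentiated, had 147 ± 2.31, 86.4 ± 15.2 and 64.1 ± 7.90 FPKM (SD, n = 3) in the 3 groups, and WUS, which specifies the stem cell niche, had 6.87 ± 0.803, 12.2 ± 0.124 and 16.8 ± 2.13. LFY, a regulator of floral fate, had 20.7 ± 1.61, 32.5 ± 4.64 and 43.0 ± 7.98 FPKM, and CLV3, a stem cell signal, 15 ± 2.22, 14.0 ± 2.67 and 7.49 ± 2.84. Against untreated WUS and LFY were called higher in both treated groups and STM lower, while between the treated groups WUS, LFY, STM and CLV3 did not pass the test (limma, adjusted p at least 0.0614). CLV3 and TFL1 were called lower than untreated with dexamethasone + cycloheximide (-0.95 and -1.93), but not with cycloheximide alone. The epidermal markers ATML1 and PDF1 summed to between 1177 and 1315 FPKM untreated, between 671 and 878 with cycloheximide and between 517 and 620.3 with dexamethasone + cycloheximide. PDF1 made up most of that sum. ATML1 had 42.7 ± 4.96, 38.7 ± 4.04 and 33.7 ± 5.39 FPKM and passed the test in no comparison (limma, adjusted p at least 0.0595). Over both treatments it was called lower with median scaling (limma, adjusted p = 0.0185) and with the replicate block (limma, adjusted p = 0.0118). The phloem markers APL and SUC2 summed to between 39.4 and 41.2, between 45.1 and 52.4 and between 52.8 and 65.1 FPKM. The petal and stamen identity genes AP3 and PI summed to between 41.7 and 48.4, between 24.5 and 50.1 and between 16.4 and 21.0 FPKM. PI made up most of that sum, and AP3 had 4.66 ± 0.679, 6.46 ± 6.04 and 1.02 ± 0.797 FPKM. The leaf gene RBCS1A stood at 3079 ± 158, 1900.1 ± 68.3 and 1851 ± 344. None of the 14 markers was at 0 in any library. The part of cell makeup in the cyclin and E2F values was not tested.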

How the data were processed

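The 9 libraries were grouped by the labels alone. TopHat, Cufflinks and Cuffdiff were run by the authors on TAIR10, per the submitters' processing notes, and their versions are not given in the sources used here. Per locus, the deposited FPKM was used. The labels name a kit that keeps no strand information, and the series text speaks of a strand-specific protocol. Of 33871 loci, those with status OK in all libraries and a mean FPKM of at least 1 were tested (19569). limma 3.58.1 in R 4.3.3 was run on log2(FPKM + 1) with an intensity trend, on all 9 libraries with 6 residual degrees of freedom, and was tested on simulated data. An FPKM value depends on all other transcripts in its library. The value of 1 read at loci of 101 bp gave an estimate of the relative depth, and absolute depth is unknown.

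Replicate numbers are shared between groups. Same-numbered libraries of the treated groups deviated together (r = 0.353, 0.131 and 0.213), so a blocked fit was made as well. Against untreated they did not. Replicates of a group correlated with r between 0.953 and 0.98, and no library was a duplicate. The alternatives were a pseudocount of 0.1, no minimum, median scaling, no loci under 300 bp, the block, the 6 libraries compared alone and leaving out each library. All members were named, with pathway genes called in any comparison and RBR1, CDKA;1, DPA and DPB, up to 4 S-phase genes with the smallest p per comparison, the 5 loci most like CYCD3;1, and the tissue markers. Members and lists were chosen with earlier results of these data known. Promoter windows came from RefSeq on TAIR10.1, that of 1 member is not reported here, and tables were made with Python 3.11.15.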

Additional observations from a re-analysis of the deposited data

How the results depend on the processing

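Against untreated, the number of members called changed by less than 1.5 times in every alternative run: 6 to 7 with cycloheximide and 8 with dexamethasone + cycloheximide when single libraries were left out. Between the treated groups the number of loci called was 723, and it was 1102 with the replicate block, 41 with the 6 libraries compared alone, 1544 with both, and 69 to 1248 when 1 library was left out, highest without cycloheximide replicate 3 and lowest without dexamethasone + cycloheximide replicate 3. The members called there were 3, against 0 with the 6 libraries alone and 0 to 4 when 1 library was left out. With the 6 libraries and the block they were 3, namely CYCD1;1, CYCD3;1 and CYCD4;1. The members called were 0 without cycloheximide replicate 1 or 2, 4 without cycloheximide replicate 3, and CYCD1;1 alone without any other library. The replicate block removed E2FA, added CYCD4;1 and changed no other member's call in any comparison. E2FA also lost its call with a pseudocount of 0.1 (limma, adjusted p = 0.0544) and with no minimum FPKM (limma, adjusted p = 0.0721), and CYCD4;1 gained one with median scaling (limma, adjusted p = 0.0449) and without loci under 300 bp (limma, adjusted p = 0.0452). The cause was not tested.

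Median scaling moved the median of all loci by -0.12 with cycloheximide and -0.14 with both compounds against untreated, and the share of higher calls from 48.5% to 36.6% and from 48.3% to 37.5%. The members' calls against untreated were the same genes under it. Only values that were not called changed sign. With median scaling CYCD2;1 became -0.02 between the treated groups and E2FC -0.13 over both treatments. When 1 library was left out, the log2 difference between the treated groups ran from -0.09 to 0.10 for CYCD2;1, -0.10 to 0.08 for CYCD5;1, -0.09 to 0.17 for E2FB, -0.13 to 0.02 for CDKA;1, -0.03 to 0.09 for DPA and -0.08 to 0.05 for DPB. It ran from -0.06 to 0.04 for CYCD4;1 with cycloheximide against untreated, and over both treatments from -0.24 to 0.04 for E2FB and -0.04 to 0.03 for E2FC. With 3 libraries a group, differences well inside the intervals given are not detectable.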
